A study of Homo sapiens with 23 samples.

Results

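The KRAB zinc finger genes of chromosome band 19p12 were followed in 4 ovarian cancer cell lines that had become resistant to prexasertib, an inhibitor of the checkpoint kinase CHK1. The set holds 31 genes of the 21658 in the expression table, and 31 of the 31 were measured. They were listed as the zinc finger cluster of this band because one of them, ZNF98, rose in all lines, so the set was selected on measured values of the resistant and parental libraries. Values from that contrast, and the counts of members past its thresholds, are therefore given below as a description, with no p-value for a member. Adjusted p-values for members are printed for the differences between the parental lines.

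KRAB zinc finger proteins bind DNA through an array of C2H2 zinc fingers, and their KRAB domain recruits the co-repressor TRIM28 (KAP1). TRIM28 in turn brings in the histone methyltransferase SETDB1, which places the repressive mark H3K9me3. Many of these proteins bind transposable elements, and the 19p12 cluster expanded during primate evolution. ZNF91 is known for repressing SVA elements and ZNF93 for repressing older LINE-1 elements of primates. ZNF675 is also known as TIZ, an inhibitor of TRAF6 signaling, and the ZNF208 locus is known from genetic studies of telomere length.

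The lines were OV-90, Kuramochi, OVSAHO and EFO-21, all established human ovarian cancer lines. Each was studied as parental cells and as a resistant form selected in rising concentrations of prexasertib, with no other agent or allele named in the labels. Each group held 3 libraries labelled as biological replicates, except parental OV-90 with 2, which makes 23 stranded mRNA libraries. The labels name 1 resistant form for each line, so the replicates are cultures of that form and the spread between them does not cover separate selections. Libraries are named here by the number in the table, which is not a replicate number. The authors derived the values from exon reads, put them on a log2 scale and quantile normalized them. There are no read counts, and the depth behind a value is unknown. The table places every library on nearly the same scale, with a median near 6.01 over all genes. The 10th percentile of each library lay between 1.70 and 1.87, and what is at or under it is called the bottom. A difference that starts there is not a measured fold change.

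Each of the 23 libraries correlated best with a library of its own group. Pearson's r across genes lay between 0.952 and 0.988 within groups, and the lowest value was that of the 2 parental OV-90 libraries. The tissue label was checked against ovarian and epithelial markers. PAX8, the transcription factor that marks most serous ovarian cancers, had a mean of 2.10 in parental OV-90 and between 8.44 and 9.37 in the other parental lines. The keratins KRT8 and KRT18 lay at 8.77 or above in all 8 groups. KRT7 was high in OVSAHO, with means of 11.4 and 10.1, and lay between 1.94 and 3.76 in the groups of the other lines. EPCAM differed between parental and resistant means in Kuramochi (6.48 and 2.69) and OVSAHO (8.83 and 5.82). WT1 had means of 1.87 in parental OV-90 and 1.03 in parental EFO-21. The endothelial genes PECAM1 and CDH5 had means of 8.48 and 9.11 in parental EFO-21, and the leukocyte gene PTPRC ranged from 0.54 to 4.58 over the groups. Their part in the results below was not tested.

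The members spanned 4.34 Mb of GRCh37, from chr19:19976691-24312770, with 17 on the plus and 14 on the minus strand, and all are annotated as protein coding. The values of 26 members came from the authors' robust linear model over exon features. The other 5 (ZNF66, ZNF208, ZNF676, ZNF99 and ZNF728) rested on 1 exon feature each, and ZNF98 on 2. Because these genes arose by duplication, stretches of 100 bases of each member's longest transcript were searched in the transcripts of other genes. ZNF98 shared 33.1% of its stretches with ZNF492, and ZNF492 shared 17.84% with ZNF98, so reads could have been split between this pair and their values are uncertain to that extent. ZNF208 and ZNF738 shared 26.7% and 24.2% with unnamed annotated transcripts, and the other 27 members shared 5.16% or less with any other gene.

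The members' promoters carried common sequence that the rule had not used. A promoter sequence running from 250 bases before the RefSeq start to 50 after it was present for 25 of the 31 members in a RefSeq table of assembly GRCh38.p14. Those 25 were placed on GRCh37 by exact match. There was no entry for ZNF728, ZNF253, ZNF99, ZNF738, ZNF98 and ZNF676. All words of 10 letters were counted on both strands, and the leading words were picked after these counts were seen, so the shares are a description. The word TCCAATCAGG, which holds the letters of a CCAAT box, was found in 23 of the 25 promoters (92%). It was found in 10.1% of promoters of other ZNF genes of chromosome 19, in 5.83% of those of ZNF genes elsewhere and in 0.388% of all 27305 promoters. The word CTGTCACTCA was found in 21 of the 25 (84%), against 6.76%, 3.59% and 0.385%. The words do not overlap each other.

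The 150 bases before the start are printed 5′ to 3′ on the gene strand for 7 members, with both words in capitals. ZNF208 and ZNF737 show the form with a repeated first word. With ZNF85, ZNF429 and ZNF492 they are the 5 members of largest change in Kuramochi that have an entry. ZNF257, which lacks an exact copy of the first word, and ZNF714, which passed the threshold in no line, are also shown.
ZNF208, GRCh37 chr19:22193746-22193895, minus strand: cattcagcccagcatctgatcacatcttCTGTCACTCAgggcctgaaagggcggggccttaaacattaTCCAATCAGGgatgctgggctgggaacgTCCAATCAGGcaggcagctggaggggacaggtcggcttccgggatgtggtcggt
ZNF737, GRCh37 chr19:20748588-20748737, minus strand: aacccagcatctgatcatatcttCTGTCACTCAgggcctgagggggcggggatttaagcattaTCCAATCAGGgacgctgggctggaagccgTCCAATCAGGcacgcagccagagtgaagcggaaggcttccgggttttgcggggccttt
ZNF85, GRCh37 chr19:21105907-21106056, plus strand: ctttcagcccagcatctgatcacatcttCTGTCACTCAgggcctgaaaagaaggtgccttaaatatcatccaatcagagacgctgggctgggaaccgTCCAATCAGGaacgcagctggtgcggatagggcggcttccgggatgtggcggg
ZNF429, GRCh37 chr19:21688254-21688403, plus strand: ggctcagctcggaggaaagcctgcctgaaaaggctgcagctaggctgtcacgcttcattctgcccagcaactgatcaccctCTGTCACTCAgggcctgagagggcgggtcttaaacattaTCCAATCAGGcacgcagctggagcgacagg
ZNF492, GRCh37 chr19:22816976-22817125, plus strand: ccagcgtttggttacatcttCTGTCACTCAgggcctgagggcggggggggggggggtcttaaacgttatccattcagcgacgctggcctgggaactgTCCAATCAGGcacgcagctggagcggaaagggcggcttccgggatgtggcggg
ZNF257, GRCh37 chr19:22235136-22235285, plus strand: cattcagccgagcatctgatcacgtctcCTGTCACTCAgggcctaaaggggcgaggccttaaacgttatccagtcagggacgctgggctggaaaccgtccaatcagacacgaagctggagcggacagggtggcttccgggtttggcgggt
ZNF714, GRCh37 chr19:21264859-21265008, plus strand: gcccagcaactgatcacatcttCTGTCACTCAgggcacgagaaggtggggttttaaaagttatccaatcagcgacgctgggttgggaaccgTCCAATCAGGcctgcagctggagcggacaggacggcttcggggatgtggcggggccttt

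In these windows the second word precedes the first in each promoter that holds both, as it did in the 19 members with both on the gene strand. Counted from the start, with bases before it negative, the second word began between −130 and −69, with a median of −125. The first word occurred once in 17 members and at 2 places in 6. ZNF714 carried both words in the same arrangement as ZNF85. A link between the words and the changes in the resistant forms was not tested. The median GC content of the members' promoters was 56%, against 58.3% over all promoters, and the median number of CpG dinucleotides was 10, against 14.

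**Figure D1:**
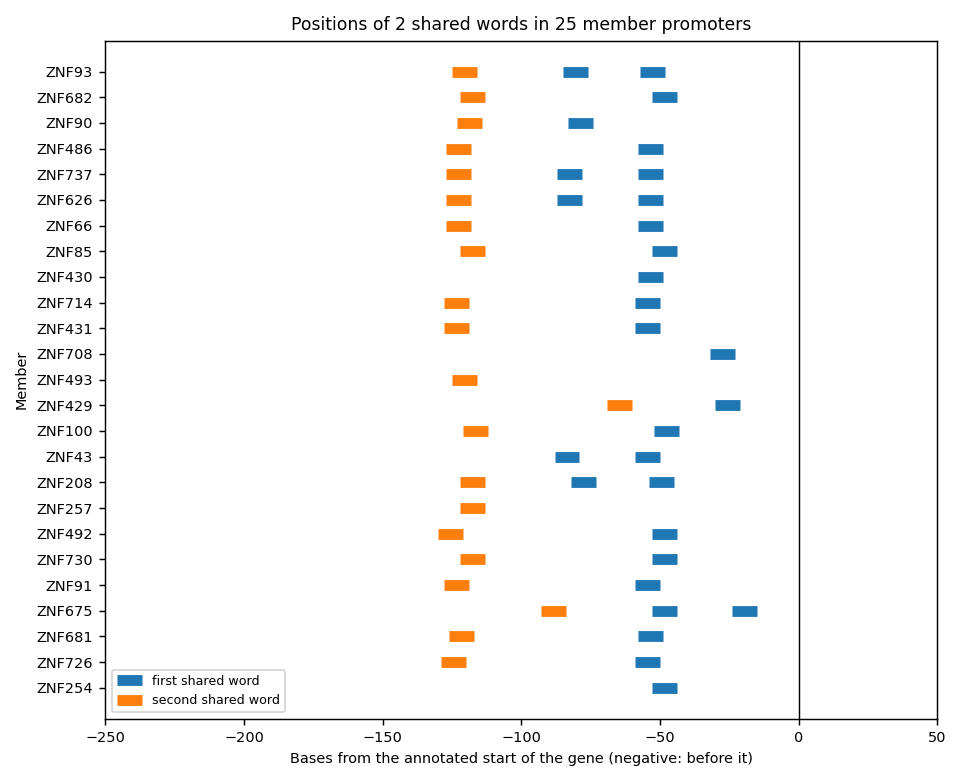
Positions of the 2 shared words of 10 letters in the 25 member promoters, with the distance from the RefSeq start in bases on the x axis and 1 row for each member. The second word (orange) begins at a median of −125, and the first word (blue) lies closer to it, at 2 places in 6 members.

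The parental lines were compared with each other, a contrast that the rule did not name, although the parental values of ZNF98 entered the change by which the set was chosen. They differed in the members' level, with parental OV-90 lowest for most members and parental OVSAHO highest. Library medians over the 31 members were 2.71 and 2.74 in parental OV-90, between 4.09 and 4.52 in parental Kuramochi, between 5.39 and 5.44 in parental EFO-21 and between 6.33 and 6.35 in parental OVSAHO. These ranges do not overlap. In bulk RNA, fewer cells that express a gene and less RNA per cell cannot be told apart. The mean was lowest in parental OV-90 for 21 members and highest in parental OVSAHO for 22. Both parental OV-90 libraries lay below all other parental libraries for 19 of the 31 members, while 18.9% of all genes had that order. All 3 parental OVSAHO libraries lay above all others for 16 members, against 16.8% of all genes.

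A limma F test over the 11 parental libraries, at an adjusted p under 0.05 and a range of line means of at least 1 on the log2 scale, called 30 of the 31 members. It called 79.7% of all genes, so a high count is common to genes at large and nothing is read from it. The range of parental means had a median of 3.28 over members and 2.01 over all genes. ZNF486 varied most among the members, with 8.06 to 8.22 in parental EFO-21 and 0.36 to 0.58 in parental OVSAHO (range of means 7.65, adjusted p = 6.15e-08). It ran against the order of the set, being at the bottom in the line where most members were highest. ZNF682 had the next widest range, from −0.01 in both parental OV-90 libraries to between 6.31 and 6.44 in parental OVSAHO (range of means 6.39, adjusted p = 3.18e-08). ZNF208 had the narrowest range of the members (1.54, adjusted p = 0.00109) and ZNF728 did not pass (adjusted p = 0.0519).

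**Figure D2:**
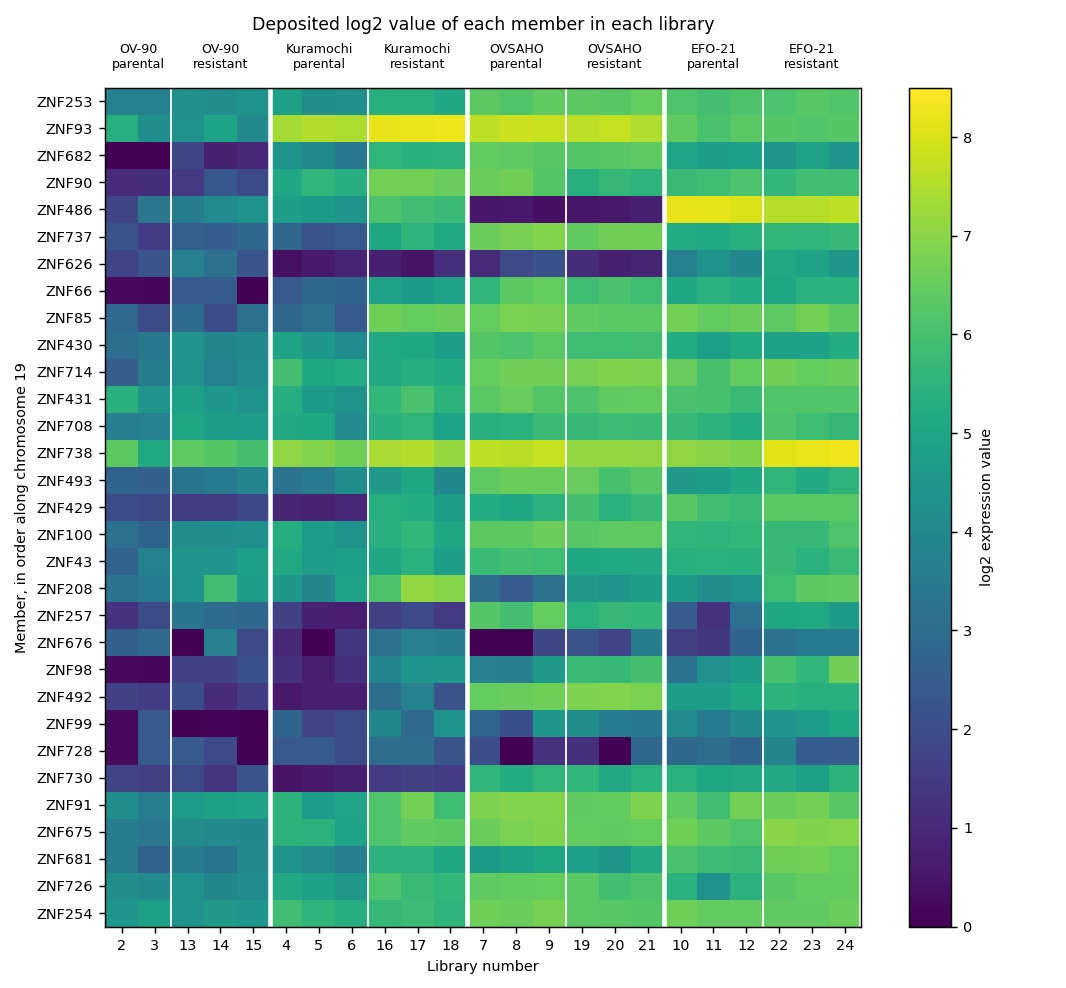
Log2 expression value of each of the 31 members (rows, in order along chromosome 19) in each of the 23 libraries (columns, grouped by line and form), with the color scale from 0 to 8.5. Parental OV-90 libraries are darkest for most members, ZNF486 is darkest in OVSAHO, and ZNF85, ZNF429 and ZNF737 change from dark to light in resistant Kuramochi.

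The resistant and parental libraries were then compared in each line. A gene is said to have risen or fallen where limma gave a p under 0.05 after Benjamini-Hochberg adjustment over the whole table and the change was at least 2-fold. Kuramochi showed the most members higher in the resistant form and OVSAHO the fewest, and no member fell in any line. In Kuramochi 15 of the 31 members rose, where 11.8% of all genes rose and 10.6% fell. In OV-90 6 rose, against 9.5% of all genes higher and 6.56% lower. In EFO-21 6 rose, against 7.11% higher and 7.15% lower. In OVSAHO 2 rose, against 3.93% higher and 3.83% lower. Since the set was chosen on this contrast, nothing is read from these counts beside their background.

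The median log2 change over the 31 members was 0.95 in Kuramochi, 0.81 in OV-90, 0.25 in EFO-21 and −0.08 in OVSAHO. Over all genes it was −0.02, −0.06, 0.01 and 0.00 in the same order. The change was above 0 for 30 members in Kuramochi, 24 in OV-90, 23 in EFO-21 and 11 in OVSAHO. Over all genes the share above 0 was 48.9%, 46.7%, 50.8% and 50.2% in the same order. Of 240 other ZNF genes of chromosome 19, 198, 139, 81 and 138 were above 0, so the direction in Kuramochi was not particular to the members. The library median of the members moved from between 4.09 and 4.52 to between 5.09 and 5.43 in Kuramochi, and from 2.71 and 2.74 to between 3.61 and 3.96 in OV-90. In EFO-21 it moved from between 5.39 and 5.44 to between 5.85 and 6.15. In OVSAHO, the line with the highest parental level, it went from between 6.33 and 6.35 to between 5.92 and 6.01. The number of members at the bottom went from 7 or 8 per library to 2 or 3 in Kuramochi.

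In OV-90 both the count of members and the share of all genes fell when any resistant library was left out. The count was 0 of the 31 without resistant library 13, 0 without library 14 and 2 without library 15. The share of all genes higher was 0.836%, 1.21% and 0.96%, so the loss was not particular to the members. With parental library 2 left out it was 6, against 6.74% of all genes, and with parental library 3 left out it was 7, against 15.7%.

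**Figure D3:**
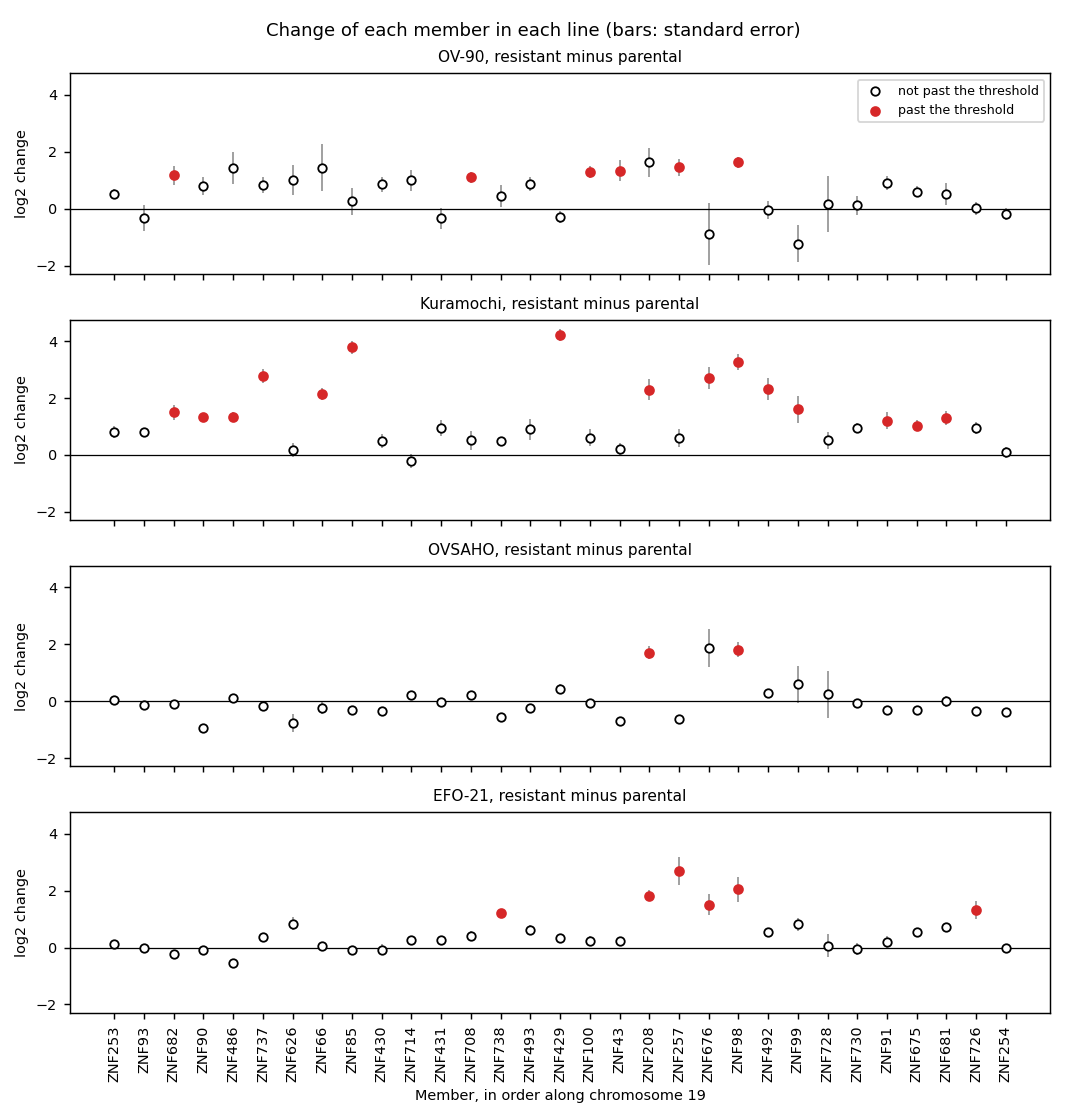
Log2 change (resistant minus parental mean) of each member in order along chromosome 19, 1 panel for each line, with bars for the standard error and filled points where the gene passed both thresholds. Kuramochi has 15 filled points, OV-90 and EFO-21 6 each and OVSAHO 2, and ZNF98 is filled in all 4 panels.

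ZNF98 was the member that rose in all 4 lines. Its parental values in OV-90 were 0.22 and 0.18, at the bottom of the libraries, and its resistant values 1.66, 1.68 and 2.13. Since 2 of those 3 resistant libraries were also at the bottom, the change of 1.62 ± 0.21 (SE) on the log2 scale is not a measured fold. This call was kept in 3 of the 5 fits with a library left out and was lost without resistant library 13 or 14. In Kuramochi it went from 1.16, 0.71 and 1.18 to 3.84, 4.47 and 4.52, a change of 3.26 ± 0.27 from the bottom. In OVSAHO, where it was well above the bottom, it went from 3.72, 3.68 and 4.60 to 5.75, 5.71 and 6.01 (1.82 ± 0.28, or 3.53-fold). In EFO-21 it went from 3.23, 4.29 and 4.64 to 6.04, 5.60 and 6.67 (2.05 ± 0.44, or 4.13-fold). The resistant libraries lay above all parental libraries in each line. Across the 8 groups its mean level ran from 0.20 in parental OV-90 through 1.02 in parental Kuramochi, 1.82 in resistant OV-90, 4.0 in parental OVSAHO, 4.06 in parental EFO-21, 4.28 in resistant Kuramochi and 5.82 in resistant OVSAHO to 6.10 in resistant EFO-21. The 3 groups near 4 overlapped in their libraries, as did the 2 highest groups.

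ZNF208, ZNF676 and ZNF98 are neighbours in the order of the members, with ZNF257 among them. ZNF208 rose in Kuramochi, OVSAHO and EFO-21. Its values went from 4.52, 3.88 and 4.89 to 6.12, 7.12 and 6.94 in Kuramochi (2.30 ± 0.36, 4.92-fold). The OVSAHO values were 3.03, 2.48 and 3.15 in parental and 4.58, 4.41 and 4.77 in resistant libraries (1.70 ± 0.23, 3.25-fold). The EFO-21 values were 4.62, 4.17 and 4.37 against 5.86, 6.34 and 6.43 (1.82 ± 0.20, 3.54-fold). The groups were fully apart in all 4 lines. In OV-90 the values were 3.24 and 3.49 against 4.38, 5.88 and 4.73, and the change of 1.63 ± 0.50 did not pass. It was the largest change in OV-90 that did not pass, while ZNF708, at 1.10, was the smallest that did.

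ZNF676, measured through 1 exon feature, rose in Kuramochi and EFO-21. Its Kuramochi values were 0.95, 0.01 and 1.38 in parental libraries, all at the bottom, and 3.18, 3.71 and 3.58 in resistant ones (2.70 ± 0.38). In EFO-21 they were 1.62, 1.39 and 2.74 against 3.23, 3.54 and 3.50 (1.51 ± 0.37), with 2 of the 3 parental libraries at the bottom, a call that was kept in 2 of the 6 fits with 1 library left out. The OVSAHO values were 0.02, 0.02 and 1.79 against 2.17, 1.71 and 3.57, which overlapped, and the change of 1.87 did not pass. In OV-90 it was 2.62 and 2.90 against 0.06, 3.70 and 1.89, so that the resistant libraries spread over the whole low range.

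ZNF257 rose in OV-90 and EFO-21. In EFO-21 it went from 2.48, 1.22 and 3.10 to 5.05, 5.17 and 4.63 (2.68 ± 0.49), the largest change of a member in that line, and because parental library 11 was at the bottom it is not a measured fold. In OV-90 it went from 1.23 and 1.95 to 3.32, 2.97 and 2.82 (1.45 ± 0.31), kept in 1 of the 5 fits with a library left out. The OV-90 change is not a measured fold either, since parental library 2 was at the bottom. The Kuramochi libraries of ZNF257 were low in both forms, at 1.66, 0.75 and 0.69 against 1.60, 1.87 and 1.44. In OVSAHO it was 6.23, 5.96 and 6.49 against 5.42, 5.70 and 5.64, with every resistant library below every parental one (−0.64 ± 0.16) and the change under 2-fold.

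The largest changes of any member were in Kuramochi, for ZNF429 and ZNF85. ZNF429 went from 0.91, 0.82 and 0.96, at the bottom, to 5.33, 5.25 and 4.75 in Kuramochi (4.22 ± 0.22). Its values in OV-90 stayed low, at 1.96 and 1.83 against 1.45, 1.51 and 1.83. In OVSAHO they were 5.27, 5.05 and 5.46 against 5.99, 5.41 and 5.68, and in EFO-21 6.29, 5.94 and 5.79 against 6.33, 6.32 and 6.34. Resistant Kuramochi thus held ZNF429 at a level near that of parental OVSAHO.

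ZNF85 went from 2.86, 3.11 and 2.40 to 6.62, 6.49 and 6.61 in Kuramochi (3.78 ± 0.22, 13.8-fold), starting above the bottom. In OVSAHO it was 6.48, 6.77 and 6.76 against 6.43, 6.34 and 6.33 (−0.31 ± 0.10), and in EFO-21 6.68, 6.46 and 6.57 against 6.38, 6.69 and 6.36. In OV-90 the libraries overlapped, with 2.90 and 1.99 against 2.97, 2.00 and 3.13. The resistant Kuramochi libraries lay within the range of the OVSAHO and EFO-21 libraries, and OV-90 stayed low in both forms.

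**Figure D4:**
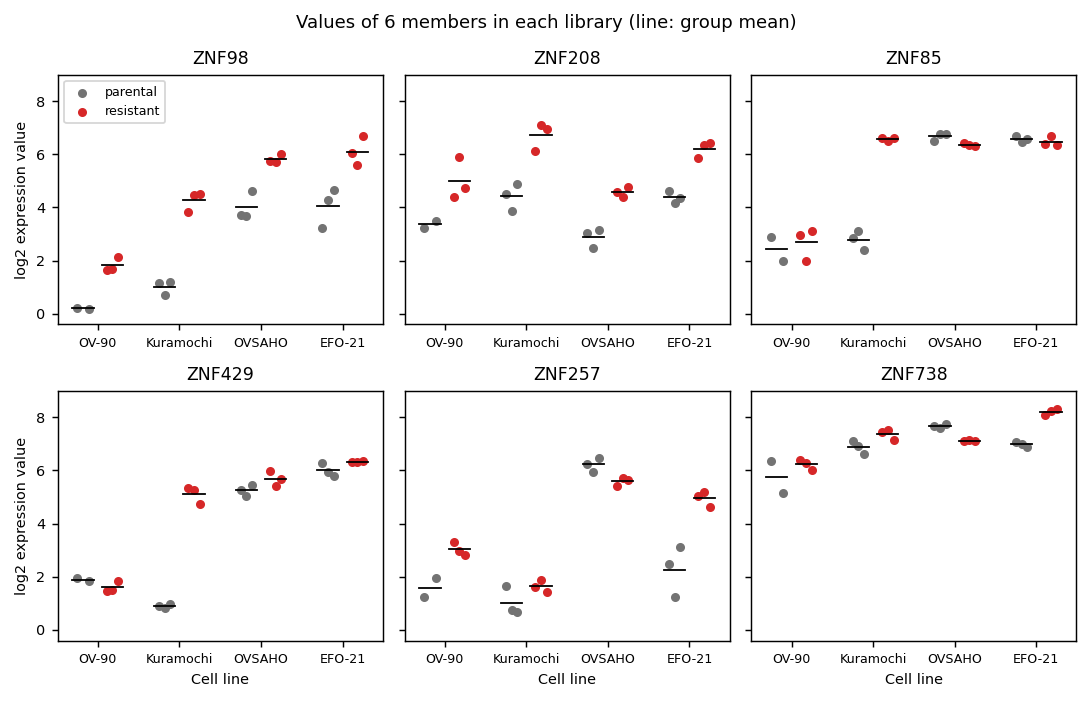
Log2 expression value in each library (points, gray parental and red resistant) and group mean (line) for ZNF98, ZNF208, ZNF85, ZNF429, ZNF257 and ZNF738 in the 4 lines. ZNF98 is higher in the resistant libraries of each line, ZNF85 and ZNF429 shift mainly in Kuramochi, and ZNF257 and ZNF738 lie lower in resistant OVSAHO and higher in resistant EFO-21.

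ZNF682 rose in OV-90 and Kuramochi. In Kuramochi it went from 4.38, 4.06 and 3.45 to 5.55, 5.41 and 5.46 (1.51 ± 0.26, 2.84-fold). In OV-90 it was −0.01 in both parental libraries and 1.76, 0.77 and 0.99 in the resistant ones, all at the bottom, and the call was kept in 0 of the 5 fits with a library left out. Its OVSAHO values were 6.44, 6.41 and 6.31 against 6.23, 6.28 and 6.41, and its EFO-21 values 4.98, 4.76 and 4.80 against 4.50, 4.89 and 4.44. Both pairs of groups overlapped.

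ZNF43 rose in OV-90, from 2.71 and 3.74 to 4.44, 4.45 and 4.81 (1.34 ± 0.37, 2.54-fold), a call kept in 1 of the 5 fits with a library left out. In OVSAHO it was 5.77, 5.91 and 5.85 in parental and 5.08, 5.20 and 5.14 in resistant libraries, fully apart in the other direction and under 2-fold (−0.70 ± 0.09). The Kuramochi values overlapped, at 5.15, 4.71 and 4.79 against 5.05, 5.43 and 4.76. In EFO-21 they were 5.32, 5.42 and 5.39 against 5.71, 5.44 and 5.72, a difference of 0.25.

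The 3 members with the highest mean level over all libraries were ZNF738, ZNF93 and ZNF91, at 7.08, 6.68 and 5.87. ZNF738 rose in EFO-21, from 7.08, 6.99 and 6.90 to 8.08, 8.24 and 8.32 (1.22 ± 0.08, 2.34-fold). It was 7.68, 7.61 and 7.75 against 7.11, 7.13 and 7.10 in OVSAHO (−0.57 ± 0.05). The Kuramochi values were 7.09, 6.92 and 6.62 against 7.43, 7.51 and 7.16, and the OV-90 values 6.36 and 5.17 against 6.40, 6.27 and 6.01. The groups were fully apart in EFO-21, OVSAHO and Kuramochi and overlapped in OV-90.

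ZNF93, the repressor of LINE-1 elements, passed the threshold in no line. It was 7.36, 7.51 and 7.46 in parental and 8.22, 8.25 and 8.28 in resistant Kuramochi, a difference of 0.81 ± 0.07 with the groups apart but under 2-fold. In OV-90 it was 5.31 and 4.22 against 4.36, 4.93 and 4.04, in OVSAHO 7.69, 7.85 and 7.77 against 7.66, 7.76 and 7.48, and in EFO-21 6.42, 6.06 and 6.33 against 6.25, 6.20 and 6.26. Each of these 3 pairs overlapped. ZNF91, the repressor of SVA elements, rose in Kuramochi, from 5.50, 4.67 and 4.96 to 6.18, 6.71 and 5.88 (1.21 ± 0.30, 2.32-fold), kept in 3 of the 6 fits with a library left out. Its OV-90 values were 4.17 and 3.63 against 4.69, 4.84 and 4.90 (0.91 ± 0.24), apart but not past the threshold. In OVSAHO they were 6.82, 6.92 and 6.92 against 6.42, 6.47 and 6.85, and in EFO-21 6.38, 5.90 and 6.68 against 6.54, 6.72 and 6.30.

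The other members that rose did so in 1 line each. In Kuramochi these were ZNF737 (2.76), ZNF492 (2.32, from the bottom), ZNF66 (2.14), ZNF99 (1.60, with parental library 5 at the bottom), ZNF486 (1.34), ZNF90 (1.33), ZNF681 (1.30) and ZNF675 (1.03), all as log2 changes. Those in OV-90 were ZNF100 (1.30) and ZNF708 (1.10), and in EFO-21 ZNF726 (1.32) was the remaining one. With 1 library left out, ZNF99 was kept in 2 of 6 fits, ZNF675 in 4 of 6, ZNF726 in 5 of 6, and ZNF100 and ZNF708 in 2 of 5 each. At the edge of the threshold in Kuramochi, ZNF675 was the smallest change that passed and ZNF726, at 0.95, the largest that did not. In EFO-21 these were ZNF738 at 1.22 and ZNF626 at 0.83, and in OVSAHO ZNF208 at 1.70 and ZNF676 at 1.87. Counted by member, 10 rose in no line, 16 in 1 line, 3 in 2 lines, 1 in 3 lines and 1 in all 4. Over all genes these shares were 73.1%, 22.2%, 4.15%, 0.568% and 0.0508%, and since the contrast chose the set nothing is read from the tally. The 10 that rose in no line were ZNF253, ZNF93, ZNF626, ZNF430, ZNF714, ZNF431, ZNF493, ZNF728, ZNF730 and ZNF254, with changes between −0.77 and 1.01. The change was above 0 in all 4 lines for 5 members, namely ZNF98, ZNF208, ZNF253, ZNF708 and ZNF728. The share of all genes above 0 in all 4 lines was not counted, so nothing is read from this number.

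Most pairs of members had a positive correlation over the 23 libraries. Pearson's r over the 465 pairs of members ran from −0.55 to 0.96 with a median of 0.73, and over 28680 pairs of other ZNF genes of chromosome 19 it was 0.06. After each line was centred on its own mean the medians were 0.45 and 0.20. The libraries share lines, whose levels differ widely, and normalization, so these are descriptions without a test. The members whose values followed ZNF98 most closely over the 23 libraries were ZNF429 (r = 0.90), ZNF737 (0.89) and ZNF253 (0.88). ZNF486 (0.12), ZNF728 (0.20) and ZNF626 (0.28) followed it least.

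Other zinc finger genes were set beside the members by count and median. Of 240 other ZNF genes of chromosome 19 measured outside the span, 60 rose in Kuramochi and 2 fell, with a median log2 change of 0.63. This held on both sides of the members, with 14 of 57 higher toward the short-arm end and 46 of 183 beyond the last member, and medians of 0.63 on each side. Of 284 ZNF genes on other chromosomes, 27 rose and 17 fell in Kuramochi, with a median of −0.04. In OV-90 27 of these genes rose and 8 fell (median 0.22), in OVSAHO 10 rose and 5 fell (−0.0034), and in EFO-21 12 rose and 7 fell (0.05). In OV-90 the other chromosome 19 ZNF genes had 21 higher and 3 lower and a median of 0.14. In EFO-21 they had 6 higher and 13 lower and a median of −0.13, whereas the members had 6 higher, 0 lower and 0.25. In OVSAHO 4 were higher and 3 lower, with a median of 0.07. Over all genes the shares higher were 9.5% in OV-90, 11.8% in Kuramochi, 3.93% in OVSAHO and 7.11% in EFO-21. No test of the members against the other ZNF genes was made.

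Further ZNF genes that are not on the list lie within the span, and both were named after their position was seen. ZNF729, between ZNF676 and ZNF98, rose in Kuramochi (3.04 from the bottom, adjusted p = 0.00166), OVSAHO (1.504, adjusted p = 0.0491) and EFO-21 (2.30, adjusted p = 0.00327). In OV-90 its change was 0.65 (adjusted p = 0.545), and the lines in which it rose were those in which ZNF208 rose. ZNF724 rose in OV-90 (3.17, adjusted p = 0.0352), with parental libraries that differed by a wide margin (1.19 ± 1.70, SD, n = 2). With both added to the list the medians are given under the processing alternatives.

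**Figure D5:**
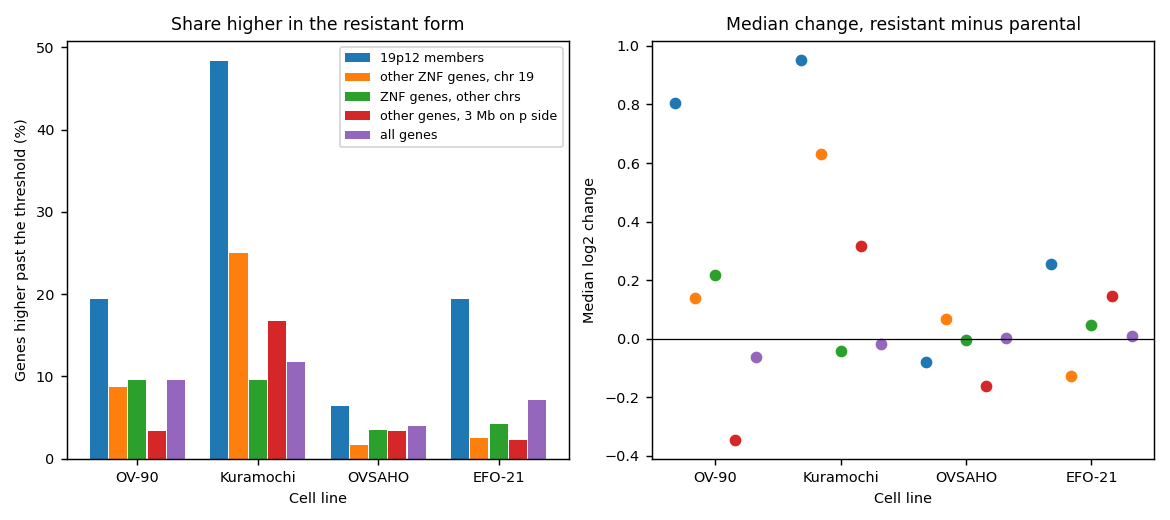
Percent of genes higher past the threshold (left, bars from 0) and median log2 change (right, points) in each line for the 31 members, 240 other ZNF genes of chromosome 19, 284 ZNF genes of other chromosomes, 90 genes that are not ZNF genes within 3 Mb on the short-arm side, and all genes. In Kuramochi the members stand at 48.4% and other chromosome 19 ZNF genes at 25%, with all genes at 11.8%.

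Genes of other kinds near the members were counted in the same way. Of 7 such genes within the span, 2 rose in Kuramochi and 1 in EFO-21. The long noncoding RNA LINC00664 rose in both, by 2.53 from the bottom in Kuramochi (adjusted p = 0.000518) and by 1.22 in EFO-21 (adjusted p = 0.000731). Of 90 genes within 3 Mb on the short-arm side, 15 rose and 5 fell in Kuramochi (median 0.32), and 3 rose and 10 fell in OV-90 (median −0.345). In OVSAHO 3 rose and 2 fell, and in EFO-21 2 rose and 3 fell. The centromere side held 0 measured genes within that distance. Over all genes 11.8% rose and 10.6% fell in Kuramochi, and 9.5% and 6.56% in OV-90. These shares were 3.93% and 3.83% in OVSAHO, and 7.11% and 7.15% in EFO-21. Neighbours called in at least 2 lines were B3GNT3, IFI30, TMEM59L, PGLS, PDE4C, IQCN and GDF15. IQCN and PDE4C rose in the same lines as LINC00664, namely Kuramochi and EFO-21 (IQCN by 2.54 and 1.57, PDE4C by 1.32 and 1.06).

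The proteins through which KRAB zinc finger proteins act were followed as a list. TRIM28 was abundant and did not pass the threshold in any line, with parental means of 11.38 in OV-90, 10.26 in Kuramochi, 10.22 in OVSAHO and 9.53 in EFO-21 and changes between −0.03 and 0.17. SETDB1 had changes between −0.21 and 0.17. These genes were chosen for their place in the pathway after their values were seen. Of 38 silencing partners measured, 6 rose in OV-90 (15.8%, against 9.5% of all genes). In Kuramochi 1 rose (2.63% against 11.8%), and in OVSAHO 1 rose (2.63% against 3.93%). In Kuramochi 1 fell (2.63% against 10.6%), and in EFO-21 1 fell (2.63% against 7.15%). The medians were 0.35 in OV-90, −0.135 in Kuramochi, 0.16 in OVSAHO and 0.06 in EFO-21. With any resistant OV-90 library left out, 1.21% or less of all genes rose in that line, and the partners were not recounted. ATRX, a chromatin remodeler that deposits histone H3.3 with DAXX, rose in OV-90 (1.48 ± 0.33, adjusted p = 0.0309) and Kuramochi (1.03 ± 0.25, adjusted p = 0.0149). SMARCAD1, a remodeler that binds TRIM28, fell by 1.20 in Kuramochi (adjusted p = 0.00309) and by 1.37 in EFO-21 (adjusted p = 7.55e-05).

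Annotated endogenous retrovirus genes, part of the elements that such proteins bind, went in different directions. Of 35 listed, 7 were measured. In Kuramochi, where 15 members rose, 2 of the 7 rose and 0 fell, against 11.8% and 10.6% of all genes. The 2 that rose were the placental envelope genes ERVV-1 (from 0.66 ± 1.13 to 4.09 ± 0.46, SD, n = 3 each, adjusted p = 0.00414 by limma) and ERVV-2 (from 1.23 ± 1.06 to 5.39 ± 0.17, adjusted p = 0.00116). Both parental means lay under 1.70, the lowest 10th percentile of a library, though not every parental library was at the bottom. Neither change is a measured fold. In EFO-21 both fell, ERVV-1 by 1.13 (adjusted p = 0.0025) and ERVV-2 by 2.30 (adjusted p = 0.000338). In all, 3 of the 7 fell in that line, against 7.15% of all genes. ERVMER34-1, an envelope gene expressed in stem cells and placenta, fell by 3.49 in OVSAHO, to a mean of 1.62 (adjusted p = 0.000229), and by 2.16 in EFO-21 (adjusted p = 0.00016). In OV-90 1 of the 7 rose, against 9.5% of all genes.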

How the data were processed

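RNA of 23 libraries was sequenced by the authors as paired reads of stranded mRNA libraries, aligned to GRCh37/hg19 with the GSNP algorithm and, after removal of exons with few reads, summarised to 1 value per gene by a robust linear model or a mean of log2 exon values. The deposited values are log2 expression values, quantile normalized by the authors over the libraries. No columns of other samples were present, and no counts, so that depth and counting error are unknown and the spread between libraries is the only measure of precision. Quantile normalization hides a shift common to most genes.

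Genes were listed by NCBI Gene ID and 20745 of 21658 (95.8%) matched a symbol. Resistant and parental libraries were compared in each line with limma 3.58.1 in R 4.3.3 (lmFit, eBayes with trend, two-sided, Benjamini-Hochberg over all genes, adjusted p under 0.05 and at least 2-fold). The paper names no test for this comparison. Parental lines were compared by limma's F test. The code was tested on simulated data. The members and lists were chosen with earlier results of these data known. Library values are given for ZNF98, for members called in at least 2 lines, for the 3 largest called changes per line whose groups were apart and whose higher mean was above the bottom, and for the 3 members of highest mean level. Genes of other lists are named where called in at least 2 lines, and others were named after their values were seen. Positions came from GENCODE annotation on GRCh37. Alternatives were 1 fit of all libraries, no mean-variance trend, a filter at the 25th percentile of gene means, recentred libraries, a 1.5-fold threshold, adjusted p alone, all ZNF genes of the span, and each library left out in turn. Protein sequences were not analysed here.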

Additional observations from a re-analysis of the deposited data

Results flagged for a closer look

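For 9 of the 31 members (29%) the resistant and parental libraries were fully apart in opposite directions in different lines, with at least 1 of the changes past the threshold. Over all genes 21.1% showed this. The difference between lines was not tested, and all values are log2 changes, resistant minus parental. ZNF85 changed by 3.78 in Kuramochi and by −0.31 in OVSAHO, ZNF90 by 1.33 in Kuramochi and by −0.96 in OVSAHO, and ZNF675 by 1.03 in Kuramochi and by −0.30 in OVSAHO. The changes of ZNF738 were −0.57 in OVSAHO and 1.22 in EFO-21, and those of ZNF726 were −0.33 in OVSAHO and 1.32 in EFO-21. ZNF43 changed by 1.34 in OV-90 and by −0.70 in OVSAHO. ZNF257 changed by 1.45 in OV-90, by −0.64 in OVSAHO and by 2.68 in EFO-21. For ZNF486 the values were 1.34 in Kuramochi and −0.55 in EFO-21, and for ZNF99 they were −1.24 in OV-90 and 1.60 in Kuramochi. The OV-90 values of ZNF99 were 0.22 and 2.38 in parental and 0.06, 0.07 and 0.06 in resistant libraries. All but parental library 3 were at the bottom, so that change rests on 1 library and is not a measured fold. In groups of 2 or 3 libraries, single libraries were not examined for outlying values.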

How the results depend on the processing

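No member's change reversed its direction where it had passed the threshold. No paired analysis was possible because the columns of the table carry library numbers and no replicate number. In OV-90 the number of members that rose, 6, became 10 in 1 fit of all libraries (11.4% of all genes) and lay between 0 and 7 with 1 library left out, the lowest counts coming without resistant library 13 or 14, and the cause was not tested. The number that fell in OV-90 lay between 0 and 1 and the median change between 0.64 and 0.76 with 1 library left out. In OVSAHO the number that rose was 1 of 24 after the filter at the 25th percentile (2.91% of the genes kept), which removes ZNF98. The number that fell there, 0, became 3 at 1.5-fold (6.73% of all genes) and 6 by adjusted p alone (16.2% of all genes) and lay between 0 and 1 with a library left out (1 without parental library 7 or 9 or resistant library 20). The OVSAHO median was −0.16 after the filter and between −0.153 and −0.0825 with a library left out. In EFO-21 the number that rose was 3 of 24 after the filter (4.62% of the genes kept), which removes ZNF98, ZNF257 and ZNF676. It was 10 at 1.5-fold (13.1% of all genes) and 13 by adjusted p alone (25% of all genes). In that line 1 member fell by adjusted p alone (23.4% of all genes). In Kuramochi 13 to 18 members rose with a library left out, against 11% to 11.9% of all genes. With ZNF729 and ZNF724 added to the list the medians were 0.81 in OV-90, 0.95 in Kuramochi, −0.08 in OVSAHO and 0.33 in EFO-21. Between parental lines 29 or 30 members were called with a Kuramochi, OVSAHO or EFO-21 library left out, and 24 of 24 after the filter. The main fit called 79.7% of all genes. The shares of all genes in the other fits between parental lines were not counted, so nothing is read from these counts. Of 168 recomputed changes of single named members, 142 stayed on their side of the threshold and 26 fell short of it. Among the members named by rule these 26 were calls of ZNF682, ZNF43, ZNF257 and ZNF98 in OV-90, ZNF676 in EFO-21 and ZNF91 in Kuramochi. Where a library was left out of 2, the remaining one was assumed to vary like the resistant group.

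Without read counts, the depth behind low values such as those of ZNF98, ZNF676 and ZNF728 is unknown. Of the 31 members, 24 had a mean above the 25th percentile of gene means.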
